A study of Mus musculus with 199 samples.

Results

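The windows described here lay on the unplaced and "random" contigs of the mouse genome, the sequences that an assembly holds without a settled position on a chromosome. They were the rows of a deposited table of 40 kb windows whose sequence name contained "random", without the contigs named for X and Y. There were 267 such windows among the 68162 rows, on 11 contigs that together span 10386428 bases. Of the 11 contigs, 10 are named for an autosome (chr1, 3, 4, 5, 7, 8, 9, 13, 16 and 17), and chrUn_random, assigned to no chromosome, held 148 of the 267 windows.

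The table came from tests of multiplex genome architecture mapping (GAM) in 46C mouse embryonic stem cells and held libraries that had failed the authors' quality control. In GAM, thin sections through frozen cells are cut, slices of nuclei (nuclear profiles) are collected by laser microdissection, and their DNA is amplified and sequenced. Sections were 220 nm thick and 4 profiles (4NP) went into each cap, which gave 1 library. A window was called in a library when it held enough reads, so each value is a call or no call and carries no depth.

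The libraries fell by title into 35 groups of 11 experiments. Besides the 4NP libraries there were 11 controls labelled water and 2 controls that were given human genomic DNA (5 ng). The 4NP groups varied whole genome amplification reagents (protocols a and c), propidium iodide (PI) staining with or without freezing, and the source (csc or mdc in the titles) and volume of proteinase K, the enzyme that digests protein off the DNA. Others compared unfrozen samples with samples frozen after the lysis incubation, or freezing before that incubation (early) with freezing after it (late). Further groups varied the number of PCR cycles, kit size, and staining with crystal violet, eosin in water or in ethanol, and SYBR Gold. A full collection of 34 4NP libraries, whose sections were stained with cresyl violet, was titled separately. In the SYBR Gold test the protocols give the stain to the libraries titled unstained, and the titles were followed. Nothing in the labels says that libraries of a group came from separate cultures, so p-values measure only the spread between these libraries.

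Random contigs are what remains when a stretch of DNA has been read but cannot be joined to its neighbours. They are often made of segmental duplications, members of tandem gene families or satellite-like repeats, in which near-identical copies prevent a unique placement. A short read from such a copy can align as well to one place as to another, so programs that align reads must either choose one at random, discard the read or report several places. In the mm9 assembly used here, the contigs of a chromosome are strung together with artificial gaps into 1 pseudo-sequence.

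The lengths in the table fitted that construction. The last window of each of the 22 placed sequences ended at that sequence's length in NCBIM37, the assembly also called mm9. The 13 random sequences of the table, X and Y included, added up to 70853964 bases and the 189 unplaced sequences of NCBIM37 to 62053964 bases. The difference of 8800000 bases equals 176 joins of 50000 bases. By length alone, 6 of the 11 contigs (chr3, 4, 7, 9, 16 and 17 random, with 46 windows) each matched exactly 1 run of consecutive unplaced sequences among 17955 runs compared. The sequence content of the other 5 contigs was not analysed here.

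The 4 stretches that follow are shown as examples of the sequence in the 6 matched contigs, and the other 221 windows are not represented among them. In chr3_random, the capitals mark GTGCTCCAC, a segment of a longer repeat, chosen after the sequence was seen. The first stretch is bases 1 to 300 of chr3_random, the second bases 1 to 300 of chr16_random, and the third bases 14038 to 14337 of the longer unplaced sequence of chr9_random, in which every 31-base word occurs once in the assembly. The last is chr17:8000001-8000300, plus strand, which occurs whole in chr17_random. All were read from NCBIM37.
chr3_random: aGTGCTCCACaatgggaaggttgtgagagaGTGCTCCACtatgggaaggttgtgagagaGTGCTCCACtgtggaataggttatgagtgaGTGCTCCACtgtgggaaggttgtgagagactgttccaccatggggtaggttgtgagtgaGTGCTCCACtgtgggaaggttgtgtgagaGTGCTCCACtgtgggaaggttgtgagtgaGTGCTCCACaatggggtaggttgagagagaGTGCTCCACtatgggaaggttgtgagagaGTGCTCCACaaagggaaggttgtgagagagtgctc
chr16_random: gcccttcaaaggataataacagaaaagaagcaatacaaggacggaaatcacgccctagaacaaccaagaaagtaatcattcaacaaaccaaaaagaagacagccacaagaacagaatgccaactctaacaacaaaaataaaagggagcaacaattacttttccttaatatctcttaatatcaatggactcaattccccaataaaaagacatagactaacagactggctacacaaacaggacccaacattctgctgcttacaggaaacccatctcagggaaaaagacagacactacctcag
chr9_random: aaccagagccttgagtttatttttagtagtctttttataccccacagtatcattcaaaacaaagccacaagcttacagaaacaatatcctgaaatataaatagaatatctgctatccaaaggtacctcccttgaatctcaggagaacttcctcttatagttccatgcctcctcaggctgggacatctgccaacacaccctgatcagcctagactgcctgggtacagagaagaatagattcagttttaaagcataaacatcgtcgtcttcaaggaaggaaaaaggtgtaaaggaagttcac
chr17: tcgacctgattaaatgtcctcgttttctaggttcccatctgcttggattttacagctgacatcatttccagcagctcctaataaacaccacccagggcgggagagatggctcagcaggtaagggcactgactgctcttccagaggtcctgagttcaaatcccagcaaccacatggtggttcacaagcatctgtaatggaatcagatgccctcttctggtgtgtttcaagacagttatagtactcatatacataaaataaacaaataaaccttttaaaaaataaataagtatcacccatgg

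The chr3_random stretch is repetitive. The segment GTGCTCCAC, with similar bases between its copies, occurs 9 times in the 300 bases shown and 39 times in the whole contig of 41899 bases on both strands, or 0.931 per kb. On chr19, taken as a reference chromosome, it occurred 0.00800 times per kb, and 0.217% of 193803 stretches of 300 bases held it. Overlap with other motifs was not examined.

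Counted in words of 31 bases on both strands, the 6 matched contigs fell into different kinds. Of the words of chr3_random, chr17_random and chr7_random, 99.9%, 99.9% and 99.0% were also present on the placed chromosomes, and 0.0931%, 0.0747% and 0.834% occurred once in the assembly. Every word of chr16_random, a single contig of 3994 bases, was present on placed chromosomes, with a median of 7858 copies there. In chr9_random, 77.5% of words occurred once in the assembly and 21.6% were on placed chromosomes, and in chr4_random 58.9% occurred once and 40.0% were placed. Thus chr9_random came nearest to ordinary sequence, for which chr19 gave 86.8% single-copy words. GC content ran from 36.1% in chr4_random to 45.0% in chr3_random, against 42.7% on chr19. Undetermined bases, including the artificial gaps, were absent from chr3_random and chr16_random and made up 52972 of the 160594 bases of chr4_random, the largest share among the 6.

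No window on any random contig was called in any library. The 267 windows gave 0 calls in 53133 window and library pairs, which allows a call rate of up to 0.00565%. Of 61816 windows on chr1 to chr19, 59456 were called in 1 or more libraries, a background of 96.2% (96.1% for 4NP libraries alone), and of the 59717 with under 5% undetermined bases, 99.3% were. The limit of a 0 is 3 counts of the total throughout. It covers counting error only, and windows of one library are not independent of each other. The contigs named for X and Y, which do not belong to this set, were also at 0, so that 0 of 13 random sequences and 22 of 22 placed sequences had a call.

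Whether the contigs were among the sequences that reads were aligned to is not given in the sources used here. A 0 in this table therefore cannot be read as absence of contig DNA from the profiles. The reason for the 0 values was not tested.

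In the 4NP libraries the contigs had 0 calls in 49662 pairs, a limit of 0.00604%, while the windows of chr1 to chr19 were called at 4.77% ± 5.39 (SD over the 4NP libraries) of windows per library. At each library's own chr1 to chr19 rate, the contigs would have held 2369 calls in all. The chr1 to chr19 rate ran from 0.00162% to 28.5% with a median of 2.51%. The library with the highest rate, in the PI-stained group, had 0 contig windows where its chr1 to chr19 rate corresponds to 76.2. A single library with 0 of 267 allows up to 1.12%, and the chr1 to chr19 rate was above that in 114 libraries, 112 of them 4NP. In the other libraries a contig rate below that of chr1 to chr19 was not detectable.

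Because every contig value was 0, the contig rate minus the chr1 to chr19 rate is the chr1 to chr19 rate with its sign turned. The difference was -4.77 percentage points over the 4NP libraries and below 0 in every one of them (sign-flip permutation test, 100000 resamples, p = 1e-05, the smallest they can give). It was -4.03 over the 11 water controls (exact sign-flip test, two-sided, p = 0.000977, the smallest possible), -2.18 without replicate 4 of the full collection and -2.40 without the unstained SYBR Gold control. All 14 sets tested had an adjusted p below 0.05, among them 11 4NP groups with chr1 to chr19 rates between 0.568% and 11.1%. These tests show that the autosomes were called and the contigs were not, and they hold nothing more about the contigs.

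**Figure D1:**
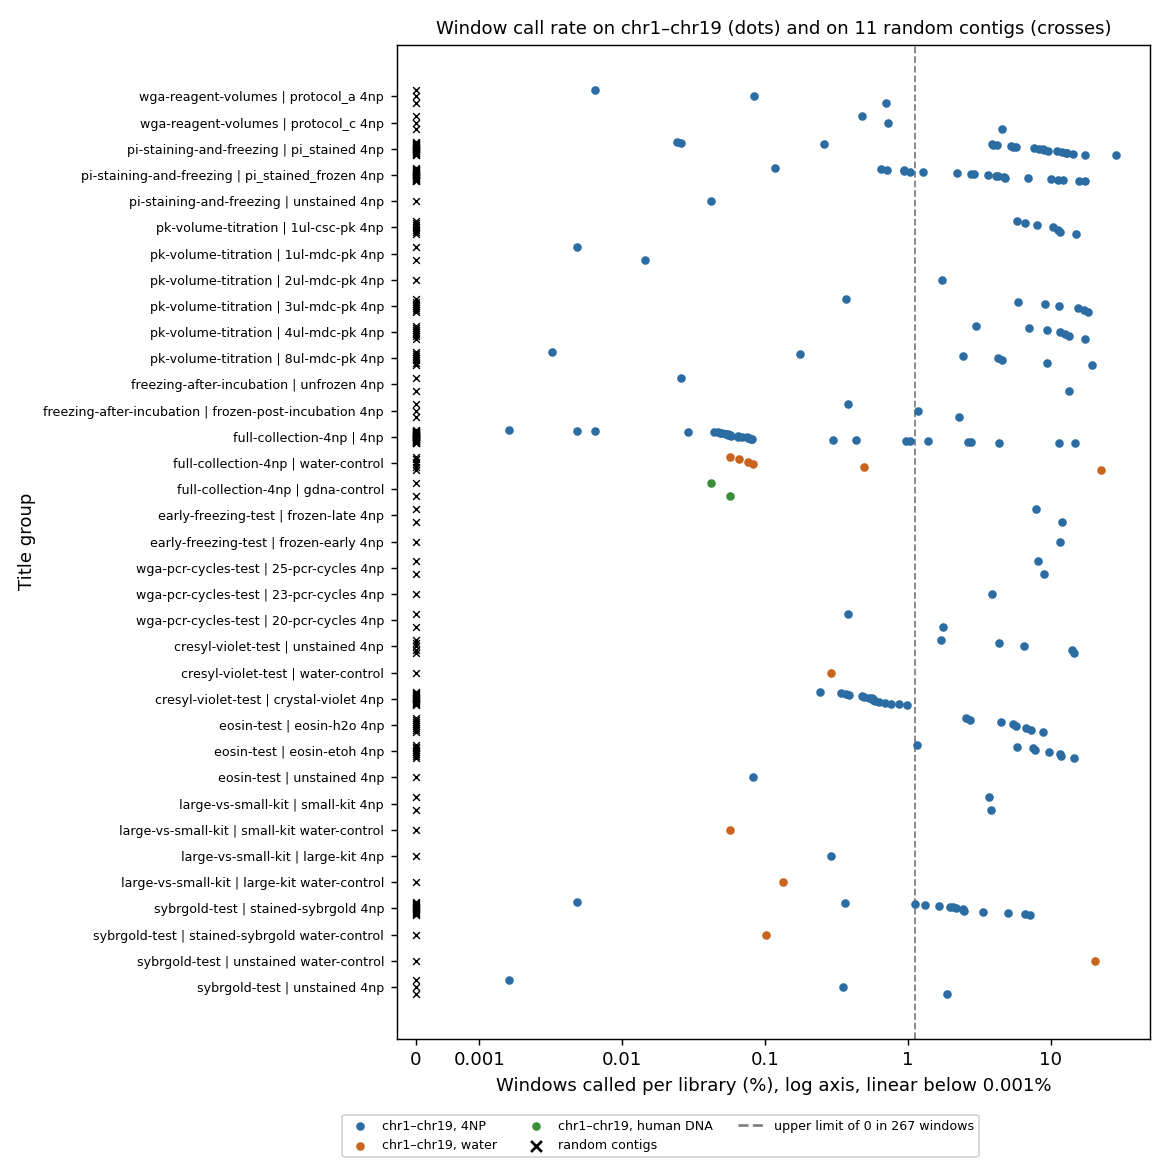
Percent of windows called in each library on chr1 to chr19 (dots, coloured by kind of library) and on the 11 random contigs (crosses), by title group, on an axis that is logarithmic above 0.001% and linear below. All crosses sit at 0, and 114 of the dots lie right of the dashed line at 1.12%, the most that 0 of 267 windows allows.

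Taken by group, 25 of the 35 groups had a mean chr1 to chr19 rate above the limit that their own contig windows allow. The titration group with 3 µl of mdc proteinase K had a mean of 11.1% ± 6.51 (SD, n = 7), and its contigs had 0 calls in 1869 pairs, a limit of 0.161%. PI-stained libraries had 8.63% ± 6.61 (n = 21) on chr1 to chr19 and a contig limit of 0.0535%. Crystal violet libraries had 0.568% ± 0.193 (n = 16) and a limit of 0.0702%. In the full collection, 4NP libraries had 1.22% ± 3.20 (n = 34) with a median of 0.0671%, against a limit of 0.0330%. Without replicate 14, the contig minus chr1 to chr19 difference of this group moved from -1.22 to -0.80 percentage points.

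In the other 10 groups the chr1 to chr19 rate was itself at or under the limit, and a lower rate on contigs was not detectable. They were 5 4NP groups (protocol a, the unstained PI library, 1 µl of mdc proteinase K, the unstained eosin library and the large kit) and 5 of the 7 control groups. In 4 further groups with more than 1 library the mean exceeded the limit because of 1 library. Without replicate 1, the unfrozen group of the freezing test had 0.0259% against a limit of 1.12%, and without replicate 1 the unstained SYBR Gold group had 0.176% against 0.562%. Without replicate 2, the group of 20 PCR cycles had 0.382% against 1.12%. The full collection's water controls, without replicate 4, had 0.155% against 0.225%. Of all groups, 11 held a single library. Those of them above the limit were 2 µl of mdc proteinase K, early freezing, 23 PCR cycles and the unstained SYBR Gold water control.

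Water controls carried chr1 to chr19 calls and no contig calls. Over the 11 of them the chr1 to chr19 rate ran from 0.0566% to 22.6% with a median of 0.102%, and the contigs had 0 calls in 2937 pairs, a limit of 0.102%. Of the chr1 to chr19 windows, 38.6% were called in at least 1 water control. Most of these calls came from replicate 4 of the full collection at 22.6% and from the unstained SYBR Gold water control at 20.4%, the only water controls above the single-library limit. These values go against their label, since only 1 4NP library had a higher rate. Without these, the other 9 water controls had 0.151% ± 0.147 (SD) against a limit of 0.125%, a rate at which the contigs would have held 3.62 calls. Their median was 0.0825%, under that limit, and their mean was raised by replicate 6 of the full collection at 0.492%. A lower rate on contigs is therefore not established for these 9.

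The human DNA controls had 0.0421% and 0.0566% of chr1 to chr19 windows called, and 0.0922% of those windows were called in at least 1 of the 2. Their contigs had 0 calls in 534 pairs, a limit of 0.562%, so a contig rate below that of chr1 to chr19 was not detectable in them.

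Each contig was then set against the chromosomes on its own. Over the 4NP libraries the 19 autosomes were called at 4.20% (chr7) to 5.58% (chr11) of pairs, and chrUn_random at 0 of 27528 pairs, a limit of 0.0109%. The next longest contigs were chr1_random with 31 windows and a limit of 0.0520%, chr8_random with 22 and 0.0733%, and chr17_random with 16 and 0.101%. The limits of chr9, 13, 7 and 5 random, with 12, 11, 10 and 9 windows, lay between 0.134% and 0.179%. chr4_random with 5 windows allowed 0.323%, chr3_random with 2 windows 0.806%, and chr16_random with its single window 1.61%. Every limit was below the lowest rate of an autosome.

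Each of the 10 contigs named for an autosome was also below that autosome. The namesakes were called at rates from 4.20% (chr7) to 5.10% (chr9), with SDs over libraries of 5.96 to 7.54 percentage points. In a test of all 35 sequences against chr1 to chr19, 15 were lower, 42.9% of those tested, and the 11 contigs were among them with the same value of -4.77 percentage points and SE 0.395 (sign-flip permutation test, 100000 resamples, Benjamini-Hochberg adjusted p = 2.19e-05). The others were the contigs named for X and Y and the X and Y chromosomes. No contig stood out from the rest, as all 11 share the value 0. For the random sequences this is therefore the same test repeated, of whether chr1 to chr19 had calls, and not separate support for each contig.

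**Figure D2:**
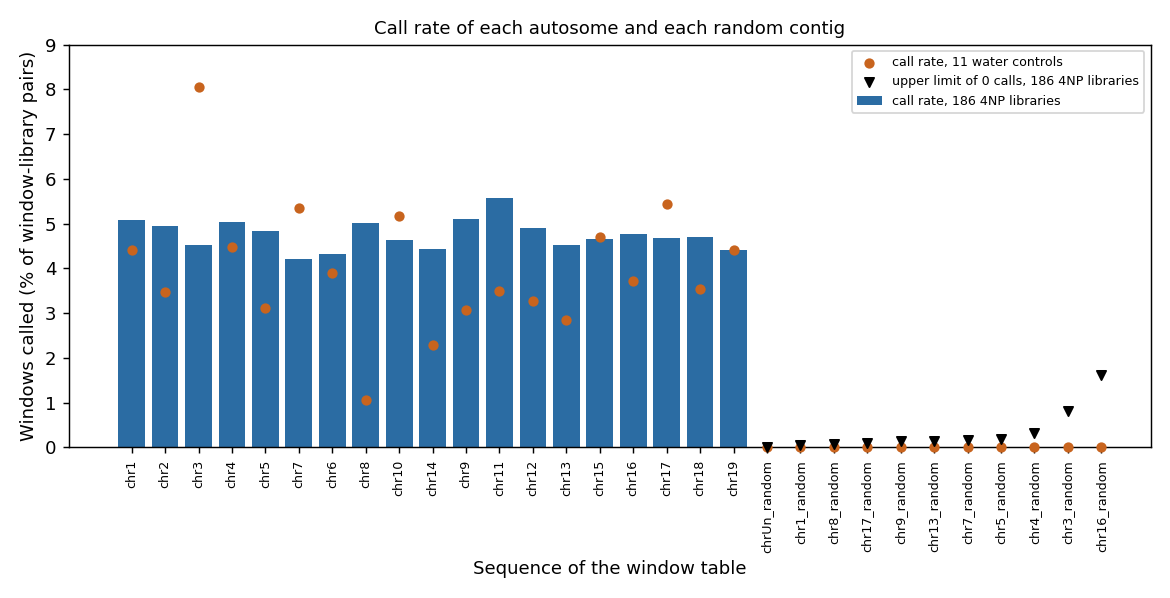
Percent of window and library pairs called on each autosome (bars, 4NP libraries, and orange dots, 11 water controls) and on each random contig, sequences ordered by number of windows. The contigs have no bar and their water dots lie at 0, and the triangles, from 0.0109% for chrUn_random to 1.61% for chr16_random, mark what 0 calls allow.

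Most contig windows were as large as the autosomal ones. Of the contig windows, 256 had the full 40 kb and 11 were shorter ends, the shortest of 311 bases on chr13_random. Of the 19 shorter end windows of chr1 to chr19, 17 were called in at least 1 library, down to one of 4312 bases. The other two had 4553 and 3856 bases. Only 5 of the contig windows were shorter than 4312 bases. The mitochondrial genome, a single window of 16299 bases, was called in 131 4NP libraries (70.4%), 5 of 11 water controls and 0 of 2 human DNA controls. Unlike nuclear windows, this genome is present in many copies per cell.

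Uncalled windows on the autosomes were mostly undetermined sequence. The 2360 windows of chr1 to chr19 without a call were undetermined over 79.7% of their bases on average, against 0.143% in called windows, and 446 of them had under 5% undetermined bases. The longest run of such windows had 26 members, at chr7:22480001-23520000. GENCODE M1 places 33 genes there, 27 of them protein coding. Of the 33, 14 are named Vmn1r, and 10 of these are protein coding. Vmn1r genes form large tandem families and encode vomeronasal receptors, which detect pheromones. Without the limit on undetermined bases, the longest uncalled run on an autosome had 175 windows. The 148 windows of chrUn_random were not screened for undetermined bases, so their run was not compared with these.

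The sequence that the contigs share with the placed chromosomes could be followed there. Windows of the placed chromosomes were taken as copies where at least 90% of their 31-base words were also in a matched contig and at least 20000 words were determined. This threshold was chosen after calls had been seen, so the values are a description with no test. There were 19 such windows, and 18 of them had a call among the 4NP libraries. They were called in a mean of 8.37 and a median of 9 4NP libraries, a mean rate of 4.50%. The median over all windows of chr1 to chr19 was also 9. Of the placed windows that hold the sequence of a contig, 18 of 19 thus had calls, while every window of the contigs themselves had none.

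The copies of chr17_random lay in 3 places on chr17 and were called in each. There were 10 of them, in 8 to 14 libraries each with a mean of 10.8. At chr17:5840001-5920000, in Snx9, which encodes a sorting nexin of endocytosis, the 2 windows were called in 11 and 13 libraries. At chr17:7960001-8160000, 4 of the 5 windows passed the threshold and were called in 8, 13, 8 and 9 libraries. They overlap Fndc1, the long non-coding RNA gene D030054H15Rik, Tagap, a gene of T cell activation, and Rsph3a, a gene for a radial spoke protein of cilia. The stretch of chr17 printed above lies in an intron of Fndc1, in the window at chr17:8000001-8040000, all of whose words were in the contig and which was called in 13 libraries. At chr17:54120001-54280000, where Sult1c1 encodes a sulfotransferase, the 4 windows were called in 14, 11, 11 and 10 libraries.

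Copies of chr7_random were called less evenly, and the 8 windows ranged from 0 to 12 libraries with a mean of 5.38. At chr7:5600001-5760000, a stretch with Vmn1r62 and Vmn1r63, the 4 windows were called in 3, 8, 11 and 12 libraries. At chr7:15760001-15840000 the 2 windows were called in 1 and 0 libraries, and at chr7:15960001-16040000, which holds part of the homeobox gene Obox2, the 2 windows were called in 5 and 3. The one copy window of chr3_random lay not on chr3 but at chr5:100600001-100640000, over Gm9932, and was called in 8 libraries. No window reached the threshold for chr4, chr9 or chr16 random. With 3994 bases, chr16_random is far shorter than a window, so its result says nothing about copies of it.

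Water controls called 6 of the 19 copy windows, with 7 calls in 209 pairs or 3.35%, beside 4.03% over all chr1 to chr19 windows. The 4.03% rests mostly on the 2 high water controls described above, and the other 9 had 0.151%. Human DNA controls called none of the copy windows. With a threshold of 50% in place of 90%, 33 windows counted as copies and were called in a mean of 7.85 libraries. These include 3 windows of chr4 that share words with chr4_random, called in 9, 0 and 12 libraries, the second of which, at chr4:145880001-145920000, holds Rex2.

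**Figure D3:**
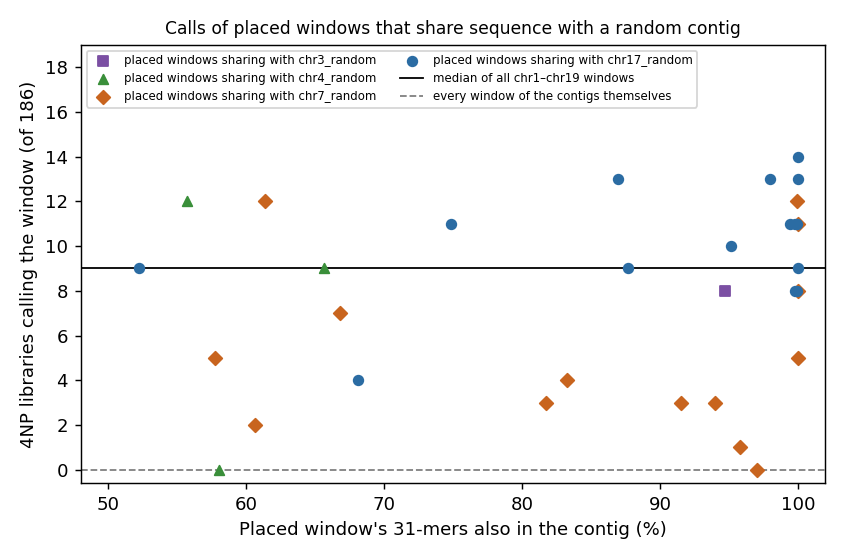
Each point is a window of a placed chromosome, by the percent of its 31-base words that also occur in a random contig (x axis, from 50%) and the number of 4NP libraries that called it (y axis). The points for chr17_random, 4 to 14 libraries, scatter around the line at 9, the median of all chr1 to chr19 windows, those for chr7_random run from 0 to 12, and the dashed line at 0 is where every contig window lies.

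The share of single-copy words was also set beside the calls on chr19, as a description. There, the 49 windows in which under 50% of words occurred once in the assembly were called in a median of 8 4NP libraries, and 47 of them were called at least once. The 868 windows with 90% or more single-copy words had a median of 9, and all were called. In the range from 70% to 90%, 446 of 446 windows were called in a median of 8 libraries. The share of 77.5% in chr9_random is a value for its determined bases as a whole and was not computed for its 12 windows, which had 0 calls.

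Treatments could not be compared on the contigs. In each of 13 comparisons between groups, both groups had a contig rate of 0 and contigs made up 0 of the called windows, a difference of 0 with no spread to test. The contig minus chr1 to chr19 difference did vary between groups, but only as the chr1 to chr19 rate did. It was -0.57 ± 0.193 percentage points (SD, n = 16) in crystal violet libraries and -8.24 ± 5.77 (n = 5) in unstained libraries of that experiment, a difference of 7.67 (exact permutation test, two-sided, p = 4.91e-05, adjusted p = 0.000639). That was 1 of 13 comparisons with an adjusted p below 0.05, or 7.69%, and in both groups the contigs were at 0. Crystal violet and unstained libraries lay in separate plate columns and all had failed quality control, so stain and column cannot be told apart. For the other 12 the adjusted p lay between 0.181 and 0.872. With 3 against 3 or 3 against 2 libraries, as for protocols a and c and for freezing after incubation, the smallest p the exact permutation test allows is 0.1.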

How the data were processed

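The deposited table held 1 row per 40 kb window and 1 column per library, each value 1 for a called window and 0 otherwise. The authors used Bowtie2 (version 2.1 in the submitters' processing notes) and mm9 for alignment, removed duplicates with Samtools, and made calls in GAMtools with the read threshold fixed at 4, as their methods state. Read totals and the set of sequences aligned to are not given in the sources used here. The contigs, comparisons and lists were chosen with earlier results of these data known.

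All 199 columns (186 4NP libraries, 11 water controls and 2 human DNA controls) were matched to samples by well name. The call rate was the percent of windows called in a library. Rates were compared within libraries by sign-flip tests (exact below 20 libraries) and between groups by exact permutation tests, or 100000 resamples where over 5000000 splits existed, two-sided, with Benjamini-Hochberg adjustment over the 14 sets, 35 sequences or 13 comparisons. Both tests were checked on simulated data. Words of 31 bases were counted in NCBIM37. The windows to be named were those most often called on each contig and in the controls, and as none was called, the placed windows named instead were chosen after their values were seen. Python 3.11.15, numpy 2.4.6 and numba 0.67.0 were used.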

Additional observations from a re-analysis of the deposited data

Results flagged for a closer look

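In the full collection's water controls, replicate 4 had a chr1 to chr19 rate of 22.6% while the next highest had 0.492%, a gap that exceeds Dixon's limit for 6 samples. It had 0 calls on the contigs. In all, 8 groups of 4 to 10 libraries were examined in this way. Chance alone flags about 1 in 20 groups where values are normally distributed, and whether call rates are so distributed was not examined.

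The contig minus chr1 to chr19 difference was 7.67 percentage points nearer to 0 in crystal violet libraries than in unstained ones (exact permutation test, adjusted p = 0.000639). The contig rate was 0 in both groups, and the difference is that of the chr1 to chr19 rate. The groups lay in separate plate columns, so stain and column cannot be told apart, and the cause was not tested.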

How the results depend on the processing

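With no contig window called, the contig rate could only be 0 under any alternative with a value. These left out chrUn_random, weighted contigs equally or kept only full 40 kb windows. Others left out windows called in a water control, or autosomes without a namesake contig. The rest used only the named chromosome, experiment means, or 1 library fewer. Leaving aside left-out libraries, 179 had a test and kept direction, fixed within libraries, and side of the threshold. Another 63 gave a contig share difference of 0, also fixed, with no test. The 14 medians, untested, each lay within 1 SD of the mean. Leaving out windows never called left no contig window, and all-0 values allow no correlation of contig with chromosome calls. Neither was run. Leaving out 1 library moved the 4NP difference between -4.80 and -4.64 percentage points, and that of all water controls between -4.43 and -2.18. In full collection 4NP libraries it ran from -1.25 to -0.80, the latter without replicate 14, and with 8 µl of mdc proteinase K from -6.70 to -3.47, the latter without replicate 3. In the full collection's water controls it ran from -4.66 to -0.15, the latter without replicate 4, and 5 libraries cannot reach an adjusted p below 0.0625. The group difference between full collection 4NP libraries and water controls ran from -1.06 to 3.45, negative only without replicate 4. The difference between 3 and 4 µl of mdc proteinase K ran from -2.28 to 0.79, with 5 of 14 left-out libraries turning its sign, and that between frozen and unfrozen caps after incubation from -1.26 to 12.1, with 1 of 5 turning it. The difference of eosin in ethanol against water ran from -4.34 to -2.43, with an adjusted p of 0.0475 without 1 library and up to 0.25 otherwise. Crystal violet against unstained ran from 6.09 to 9.30. The titles carry wells and no replicate numbers. In 5 of the 13 comparisons both groups held equal numbers of libraries in each plate row, and the row was taken as a replicate block, an alternative chosen after the data were seen. With the replicate block the mean differences within rows were -3.25 percentage points for eosin in ethanol against water (exact sign-flip test, p = 0.0469, adjusted p = 0.203, below 0 in 7 of 8 rows) and -0.49, -5.40 and -4.91 for 3 against 4, 3 against 8 and 4 against 8 µl of mdc proteinase K (adjusted p = 0.875, 0.279 and 0.254, exact). For PI stained against PI stained and frozen it was -3.46, with labels permuted within rows (100000 resamples, adjusted p = 0.232). No call changed. No block was fitted to the other 8 comparisons, where row numbers were unequal. The threshold of 50% for placed copies was chosen after the data were seen and gave a mean of 7.85 libraries, against 8.37. The calls hold no read depth, and libraries with a chr1 to chr19 rate under 1.12% cannot show a lower rate on contigs.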
